A study of Mus musculus with 13 samples.

Results

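The 7 long noncoding RNAs of brain cells described here were followed by symbol through 13 mouse RNA sequencing libraries: Meg3, Rian, Mirg, Snhg11, Miat, Malat1 and Neat1. All 7 had a row among the 24542 symbols of the culture table, and 6 had a row among the 23238 symbols of the tissue table, where Mirg was not analysed here. The tissue libraries came from the hippocampus of 3xTg mice, which develop features of Alzheimer disease. They carry human transgenes for tau and the amyloid precursor protein, both mutant and both driven by the neuronal Thy1 promoter, and a mutant presenilin allele. In 4 of them AAV9, an adeno-associated virus, delivered Nurr1 (gene symbol Nr4a2) and Foxa2, both transcription factors, written N+F here, and 3 were given a control AAV9. All 7 tissue libraries carry amyloid beta as their treatment label. The sources used here give no age for these mice. The 6 culture libraries came from glia of ICR pups at postnatal day 1, and each group was 1 library. For glia of each region, hippocampal and cortical, the groups were N+F lentivirus with amyloid beta, control lentivirus with amyloid beta (the amyloid beta control) and control lentivirus without it (untreated). It is not stated whether pups were pooled. The study asked how delivery of Nurr1 and Foxa2 changes gene expression in this disease model and in cultured glia of ICR pups.

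Long noncoding RNAs are transcripts without a long reading frame, many of which act in the nucleus as scaffolds or in the control of transcription and splicing. Meg3, Rian and Mirg lie in that order along the imprinted Dlk1-Dio3 domain of chromosome 12, where the maternal copy gives rise to the noncoding RNAs and the paternal copy to the protein-coding genes Dlk1, Rtl1 and Dio3. Meg3 is abundant in neurons. Rian carries small nucleolar RNAs and Mirg carries a cluster of microRNAs in its introns. Snhg11 is a small nucleolar RNA host gene that is strongly neuronal in brain, and Miat (also called Gomafu) forms nuclear bodies in neurons. Malat1 is a nuclear RNA of most cell types that resides in splicing speckles. Neat1, its neighbour on chromosome 19, is the scaffold on which paraspeckles assemble and is known as a stress-responsive RNA.

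The start-site regions of these genes are shown because the members that shared a pattern below could share letters there, and because the delivered factors have known binding cores. RefSeq promoter windows in build GRCm38.p6, from 250 bases before to 50 bases after an annotated start, were found for 6 of the 7 members, and Neat1 is named only. Each window was searched on both strands for AAGGTCA, the core of the element that Nurr1 binds, for TGTTTAC, a forkhead core of the kind Foxa2 binds, and for TGACG, a core of the cAMP response element. Capitals mark the matches. The windows shown are 2 starts of Meg3 at chr12:109540746-109541045 and chr12:109545148-109545447, both on the plus strand, then Snhg11 at chr2:158375463-158375762 on the plus strand and Malat1 at chr19:5802623-5802922 on the minus strand.
Meg3, first start: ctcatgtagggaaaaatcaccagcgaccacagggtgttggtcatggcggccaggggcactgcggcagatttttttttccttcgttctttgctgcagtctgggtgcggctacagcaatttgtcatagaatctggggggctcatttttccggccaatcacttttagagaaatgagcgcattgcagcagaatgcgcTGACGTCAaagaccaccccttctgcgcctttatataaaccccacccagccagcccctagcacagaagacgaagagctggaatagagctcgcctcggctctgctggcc
Meg3, second start: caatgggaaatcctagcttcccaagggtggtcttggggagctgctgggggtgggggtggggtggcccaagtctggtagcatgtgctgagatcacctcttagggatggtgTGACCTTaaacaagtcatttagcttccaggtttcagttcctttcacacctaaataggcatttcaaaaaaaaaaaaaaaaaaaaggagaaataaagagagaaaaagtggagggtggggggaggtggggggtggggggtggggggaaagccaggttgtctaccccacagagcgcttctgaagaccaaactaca
Snhg11: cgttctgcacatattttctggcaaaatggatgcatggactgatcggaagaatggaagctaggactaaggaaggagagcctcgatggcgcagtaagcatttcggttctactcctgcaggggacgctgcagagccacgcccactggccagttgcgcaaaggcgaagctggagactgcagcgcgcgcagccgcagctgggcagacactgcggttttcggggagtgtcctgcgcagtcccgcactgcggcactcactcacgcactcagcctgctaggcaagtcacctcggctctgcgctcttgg
Malat1: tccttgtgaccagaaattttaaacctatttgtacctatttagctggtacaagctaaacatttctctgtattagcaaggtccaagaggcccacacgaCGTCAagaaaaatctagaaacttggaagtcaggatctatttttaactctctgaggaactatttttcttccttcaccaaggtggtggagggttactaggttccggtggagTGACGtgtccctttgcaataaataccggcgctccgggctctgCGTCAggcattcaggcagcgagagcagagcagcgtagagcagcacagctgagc

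The first Meg3 window held the palindrome TGACGTCA, which counts as 2 overlapping TGACG matches, 1 per strand. The second held 1 match to AAGGTCA, read on the minus strand. Malat1 held 3 TGACG matches, and the windows of Snhg11, Rian, Mirg and Miat held no match to any of the 3 cores. Over all 32851 windows of the table, 4.72% held AAGGTCA, 3.65% held TGTTTAC and 20.8% held TGACG. The letters describe these windows only and say nothing of binding.

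Rian, Meg3 and Mirg also host microRNA hairpins, and a few of their mature products are shown because their hairpin rows could be set beside the host RNA in culture. The sequences are from RefSeq in build GRCm38.p6, written 5′ to 3′, with the seed (bases 2 to 8) in capitals. They lie on the plus strand, miR-1906 in Meg3 at chr12:109544588-109544609, miR-1188-5p in Rian at chr12:109611841-109611861, and the rest in Mirg, miR-453 at chr12:109735669-109735692, miR-496a-5p at chr12:109739132-109739152 and miR-3072-5p at chr12:109747893-109747914.
miR-1906: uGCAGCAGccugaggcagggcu
miR-1188-5p: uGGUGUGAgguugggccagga
miR-453: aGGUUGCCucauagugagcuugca
miR-496a-5p: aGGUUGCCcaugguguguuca
miR-3072-5p: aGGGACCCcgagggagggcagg

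Of the mature sequences of the 15 hairpins that lie within the 3 hosts, miR-453 and miR-496a-5p were the only pair with the same seed, GGUUGCC.

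Tissue libraries held 10194437 to 12260884 counts with N+F and 12092488 to 25139406 with control AAV9, and culture libraries 52189025 to 78273121 counts. The 6 tissue members took 0.481 to 0.606% of the counts with N+F and 0.482 to 0.735% with control AAV9. All 12 pan-neuronal markers were above 0 in every tissue library. The cultures are labelled as glia. The same neuron markers, among them Snap25, Syt1 and Rbfox3, summed in hippocampal glia to 497 CPM with N+F (counts scaled to a common library total), 488 CPM in the amyloid beta control and 8894 CPM in the untreated library. In cortical glia they summed to 556, 453 and 9594 CPM in the same order. All 12 were above 0 in the 6 libraries except Rbfox3 in hippocampal glia with N+F. Oligodendrocyte markers summed in hippocampal glia to 262 CPM with N+F, 306 in the amyloid beta control and 9704 in the untreated library, and in cortical glia to 483, 181 and 8138 CPM. Choroid plexus markers summed to 10.5, 4.15 and 4367 CPM in hippocampal and 406, 2.01 and 499 CPM in cortical glia, in the same order, and microglial markers to 71.3, 91.2 and 550 CPM and to 285, 143 and 574 CPM. Of 10 endothelial markers 9 were at least 2-fold lower in the amyloid beta control than in the untreated library of both regions. Astrocyte markers summed to 5771 to 9395 CPM in the 6 libraries, but single markers of that list differed. Of its 10 genes, Gfap, Aqp4, Aldh1l1 and Sox9 were at least 2-fold higher in both amyloid beta controls, and Slc1a2 and S100b lower. Over all genes tested 16.6% were higher and 21.5% lower. The untreated libraries thus stand apart in markers of several cell types. With 1 library per condition, an effect of amyloid beta on a member and this difference between the cultures cannot be told apart in any ratio against the untreated libraries. In bulk libraries, fewer cells of a type and less RNA per cell cannot be told apart.

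The delivered genes were looked at as a check of the labels. Nr4a2, which encodes Nurr1, measured 488 CPM with N+F, 3.35 CPM in the amyloid beta control and 58.3 CPM in the untreated library of hippocampal glia, and 36.9, 5.14 and 18.99 CPM in cortical glia. Foxa2 had 8482 counts with N+F in the hippocampal culture and 1059 in the cortical culture with N+F, and 0 in the other 4 libraries. In tissue Nr4a2 measured 22.1 to 34.2 CPM with N+F and 19.4 to 45.1 CPM with control AAV9, and Foxa2 had 1 to 26 counts with N+F and 1 to 5 with control AAV9, so that neither gene separated the tissue groups.

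In the hippocampus of 3xTg mice 0 of the 6 members analysed passed the test for N+F against control AAV9 at an adjusted p of 0.05 (edgeR quasi-likelihood test, Benjamini-Hochberg over 15523 genes). The background was 0.11% of all genes called by that test. At an unadjusted p under 0.05, 1 member was lower, Neat1, against 8.46% of all genes in either direction. DESeq2 called 0 of the 6, against 0.946% of 14378 genes. In 0 of the 6 members were the groups separate, against 8.11% of all genes. Tissue levels of single genes below are TMM-scaled CPM, and sums of marker lists are CPM of the library total. Errors of fold changes are standard errors.

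Meg3, the maternally expressed RNA at the head of its domain, measured 1615, 1507, 1409 and 1297 CPM with N+F, against 2167, 1131 and 1055 CPM with control AAV9. The N+F libraries lay close together, inside the span of the controls, whose first library was far above the other two. The means were 1457 ± 136 CPM with N+F and 1451 ± 621 CPM with control AAV9 (SD, n = 4 and 3), a log2 fold change of 0.01 ± 0.23 (edgeR adjusted p = 0.997). Rian, the small nucleolar RNA host downstream of it, measured 103, 93.0, 95.4 and 119 CPM with N+F, against 149, 82.4 and 109 CPM with control AAV9. Its groups also overlapped, and again control 1 was the highest library. The log2 fold change was -0.15 ± 0.18 (edgeR adjusted p = 0.894). Rian had 7.13 ± 1.40 counts per 100 Meg3 counts with N+F and 8.17 ± 1.88 with control AAV9 (SD, n = 4 and 3).

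Snhg11, the neuronal small nucleolar RNA host, measured 994, 1059, 1005 and 726 CPM with N+F, against 1029, 774 and 567 CPM with control AAV9. Control 1 and 3 of the N+F libraries were close, and the remaining libraries of both groups were lower. The log2 fold change was 0.26 ± 0.20 (edgeR adjusted p = 0.812). Miat, the RNA of neuronal nuclear bodies, measured 58.9, 93.4, 53.6 and 76.3 CPM with N+F, against 153, 84.6 and 64.5 CPM with control AAV9. Control 1 was alone above 100 CPM, and the other libraries of both groups were mixed. The log2 fold change was -0.52 ± 0.27 (unadjusted p = 0.0774, edgeR adjusted p = 0.662).

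Malat1, the speckle RNA, measured 3259, 2461, 3491 and 2402 CPM with N+F, against 2756, 2615 and 3106 CPM with control AAV9. The highest and the lowest library were both N+F libraries. Its log2 fold change was 0.04 ± 0.18 (edgeR adjusted p = 0.974). Neat1, the paraspeckle scaffold, measured 170, 171, 115 and 99.2 CPM with N+F, against 356, 186 and 125 CPM with control AAV9. Controls 1 and 2 lay above all N+F libraries and control 3 lay among them. The log2 fold change was -0.68 ± 0.30, with an unadjusted p of 0.0443 that did not hold over all genes (edgeR adjusted p = 0.569). Neat1 had 4.89 ± 1.58 counts per 100 Malat1 counts with N+F and 8.02 ± 4.51 with control AAV9 (SD, n = 4 and 3), ranges that overlap.

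**Figure D1:**
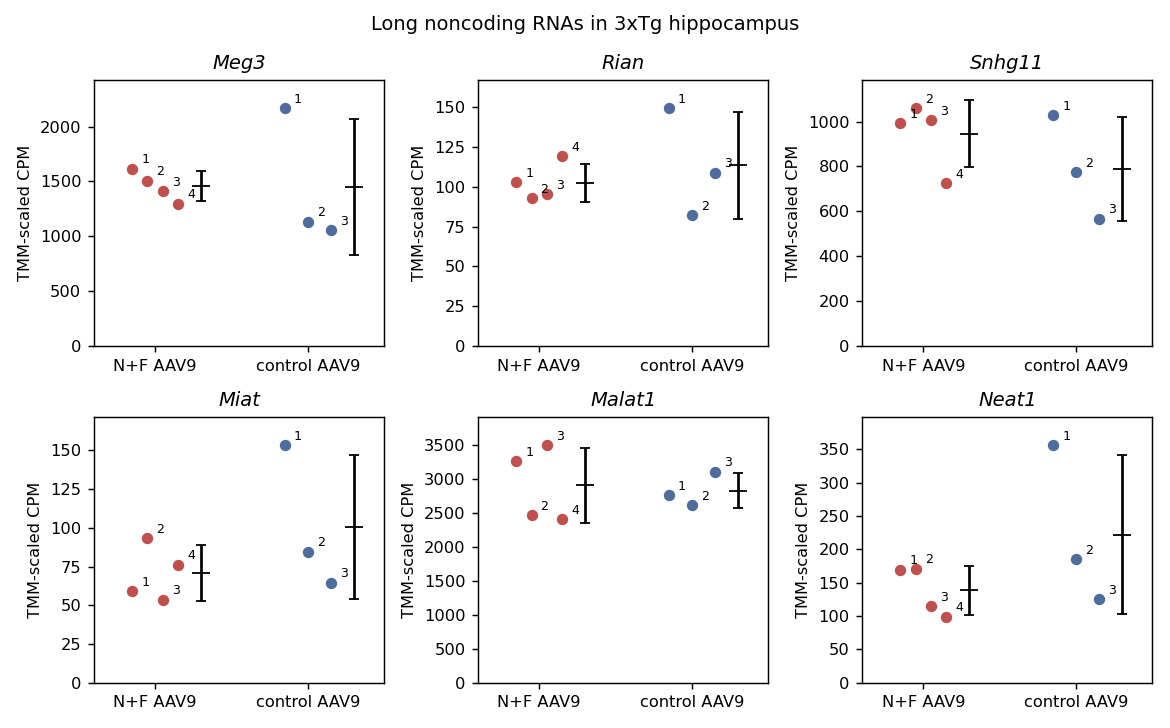
Levels of the 6 members in each hippocampal library, as TMM-scaled CPM, with N+F libraries left of control AAV9 libraries; points are libraries and bars are means with SD. The first control library lies highest for Meg3, Rian, Miat and Neat1, and the groups overlap in all 6 panels.

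Control 1 was the highest of the 7 libraries for 4 of the 6 members, Meg3, Rian, Miat and Neat1, while it was the highest for 17.1% of all genes tested. Set against the mean of controls 2 and 3, control 1 held 1.98 times the level of Meg3, 1.56 times of Rian, 1.53 times of Snhg11, 2.05 times of Miat and 2.29 times of Neat1, but 0.964 times of Malat1. The median gene had a log2 ratio of 0.01 there, and Neat1 stood at percentile 99.5 of all genes. Control 1 is also the deepest library, with 25139406 counts, and its part in these ratios was not tested. Without control 1 the log2 fold change of Neat1 was -0.17 and that of Meg3 0.41 (unadjusted p = 0.0237, edgeR adjusted p = 0.485), and Rian turned to 0.09. Miat was then at -0.09, so that most of its value rested on control 1, and Snhg11 was at 0.49 (unadjusted p = 0.0281, edgeR adjusted p = 0.502). Without control 3, which lay lowest among controls for Neat1, Neat1 was at -0.97 (unadjusted p = 0.00485, edgeR adjusted p = 0.293). Without N+F 3 or without N+F 4 its unadjusted edgeR p was 0.11, and DESeq2 on all 7 libraries gave an unadjusted p of 0.12. The controls left out here were picked by these same values, so the p-values without them only describe the spread.

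**Figure D2:**
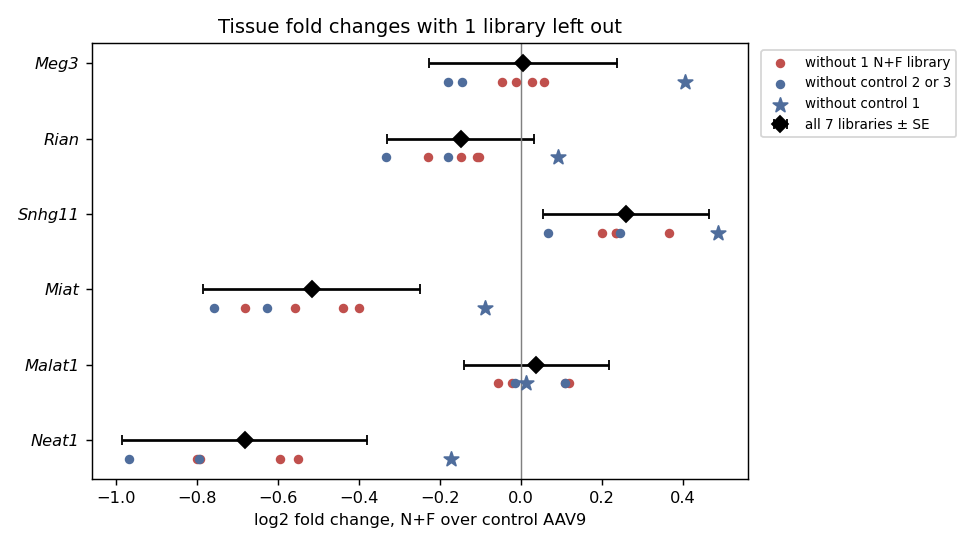
Log2 fold change of each member, N+F over control AAV9, with all 7 tissue libraries and with each library left out in turn. Leaving out control 1 moves Neat1 to -0.17 and Meg3 to 0.41, while Malat1 stays between -0.06 and 0.12.

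Among the cell markers, the hippocampal excitatory list of 11 genes, all above 0, summed to 2806 to 3942 CPM with N+F and 3737 to 4527 CPM with control AAV9, and 3 of its genes (Fibcd1, Spink8 and Neurod6) were lower past the test. The striatal list of 11 genes summed to 1861 to 2956 CPM with N+F and 541 to 2523 CPM with control AAV9. The 10 astrocyte markers summed to 2465 to 2934 CPM with N+F and 2993 to 3809 CPM with control AAV9. The 10 mural and fibroblast markers summed to 57.8 to 82.7 CPM with N+F and 93.6 to 425 CPM with control AAV9, with Col1a1 lower past the test (log2 fold change -4.21). None of these marker calls held when any 1 N+F library or control 3 was left out, as the test then called 0 genes lower. The 8 oligodendrocyte precursor markers summed to 106 to 147 CPM with N+F and 153 to 204 CPM with control AAV9. The sums of the astrocyte, mural and fibroblast, and precursor lists did not overlap between the groups. The 12 neuron markers summed to 5716 to 7159 CPM with N+F and 6547 to 7733 CPM with control AAV9. The part of these cells in the members' levels was not tested. Meg3 had 21.4 ± 4.45 counts per 100 neuron marker counts with N+F and 21.0 ± 8.90 with control AAV9 (SD, n = 4 and 3).

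In culture, the amyloid beta control libraries held very little of 5 members that were abundant in the untreated libraries. Meg3, Rian, Mirg, Snhg11 and Miat were at least 2-fold lower in both regions, 5 of 7 members, against 21.5% of 14516 genes lower and 16.6% higher. In hippocampal glia taken alone 5 of 7 were lower, against 25.6% of genes, and in cortical glia 6 of 7 were lower, against 25.4%, and 1 was higher, Neat1, against 19.8%. These values have no replicate error. Intervals given with them are 95% counting intervals and cover counting error only.

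Meg3 measured 9.58 CPM in the amyloid beta control and 4976 CPM in the untreated library of hippocampal glia, and 9.65 and 6113 CPM in cortical glia. That is 519-fold lower (483 to 560) in hippocampal and 633-fold lower (584 to 688) in cortical glia. These values are for the sum of its 3 lines, with log2 ratios of CPM + 1 of -8.88 and -9.17, and with the line of highest total alone the log2 ratios were -10.9 and -11. Snhg11 had 4.56 CPM in the amyloid beta control and 2651 CPM in the untreated library of hippocampal glia, and 4.05 and 4042 CPM in cortical glia. It was 581-fold lower (522 to 648) in hippocampal and 998-fold lower (880 to 1135) in cortical glia.

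Rian had 7.59 CPM in the amyloid beta control and 635 CPM in the untreated library of hippocampal glia, and 5.11 and 825 CPM in cortical glia. Its log2 ratios of CPM + 1, -6.21 and -7.08, were smaller in size than those of Meg3, -8.88 and -9.17, although the genes lie in the same domain. Miat had 10.96 CPM in the amyloid beta control and 1009 CPM in the untreated library of hippocampal glia, and 17.3 and 999 CPM in cortical glia, with log2 ratios of -6.40 and -5.77. Mirg, the microRNA host, rested on few reads, with 2 counts in the amyloid beta control and 1298 in the untreated library of hippocampal glia. In cortical glia the counts were 13 and 1390 in the same order. Mirg was 718-fold lower (198 to 5931) in hippocampal and 124-fold lower (72.5 to 234) in cortical glia.

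Malat1 and Neat1, the nuclear RNAs of most cell types, were not at least 2-fold lower in both regions. Malat1 had 936 CPM in the amyloid beta control and 1140 CPM in the untreated library of hippocampal glia, and 611 and 1375 CPM in cortical glia, log2 ratios of -0.28 and -1.17. Neat1 had 191 CPM in the amyloid beta control and 212 CPM in the untreated library of hippocampal glia, and 399 and 170 CPM in cortical glia, log2 ratios of -0.15 and 1.23. Malat1 was thus past 2-fold lower and Neat1 past 2-fold higher in cortical glia only, and whether the regions differ cannot be tested with 1 library each.

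**Figure D3:**
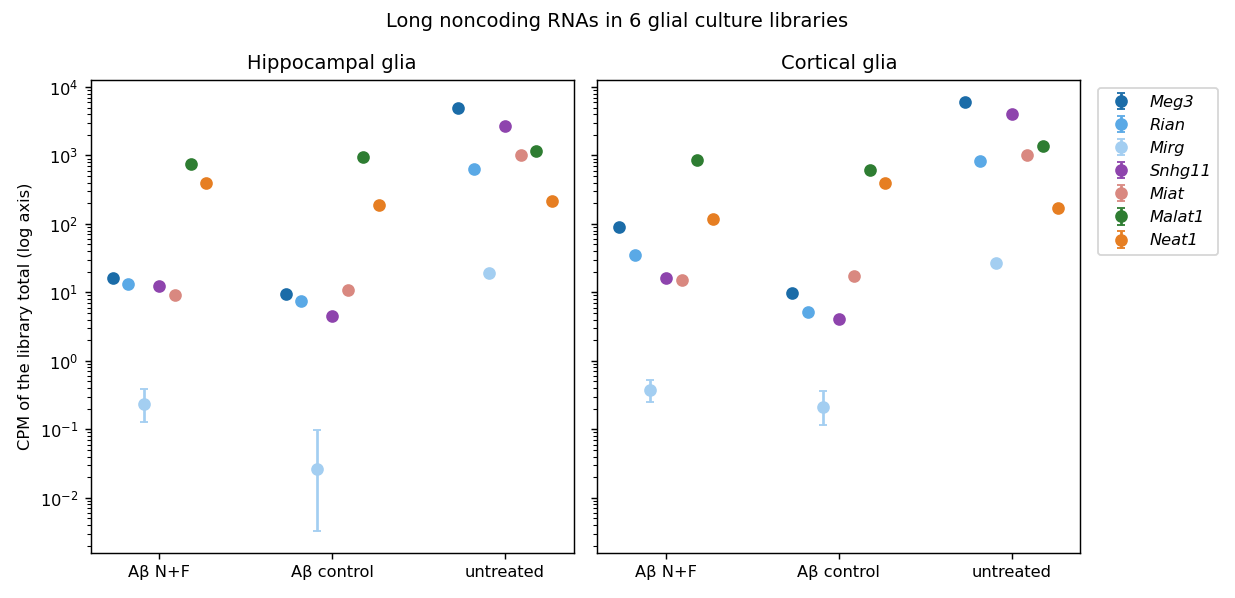
Levels of the 7 members in the 6 culture libraries, as CPM on a log axis, with N+F, amyloid beta control and untreated libraries in that order for each region. Meg3, Rian, Mirg, Snhg11 and Miat lie far higher in both untreated libraries, while Malat1 and Neat1 stay between 118 and 1375 CPM in all 6.

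The neuron markers moved with these 5 members. Of the 12 markers 11 were at least 2-fold lower in both regions, with medians of the list at -6.20 and -6.16, against medians of -0.03 and -0.01 over all genes tested. Of 10 oligodendrocyte markers 10 were lower, with medians of -5.79 and -6.81. Meg3 had 1.96 counts per 100 neuron marker counts in the amyloid beta control and 55.9 in the untreated library of hippocampal glia, and 2.13 and 63.7 in cortical glia. These ratios depend on the markers summed. The 11 lower markers ran from Snap25 (log2 ratios of -10.4 in hippocampal and -10.1 in cortical glia) to Gap43 (-1.73 and -1.25), with Meg3 itself at -8.88 and -9.17. The part of neuronal cells in the members' levels was not tested. A second fit with region and condition as additive terms, on 2 residual degrees of freedom, called the same 5 members lower, with edgeR adjusted p from 0.00197 to 0.00471, where 17.2% of 16762 genes were lower. Its spread measures how far the regions differ in response, not how replicates differ.

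The hairpin rows inside the hosts were likewise higher in the untreated libraries. The 10 hairpins within Mirg had 2 counts in all in the amyloid beta control and 164 in the untreated library of hippocampal glia, and 2 and 151 in cortical glia. The hairpin of miR-3072, the largest of them, held 102 and 90 of the untreated counts. The 3 hairpins within Rian had 1 and 44 counts in hippocampal glia, against 0 and 53 in the cortical libraries, in the same order of libraries, and the 2 within Meg3 had 1 and 46, and 2 and 40. A library made from messenger RNA does not measure mature microRNAs, and reads of the hairpin and of its host cannot be told apart in these counts.

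The culture table lists Meg3 in 3 lines, Miat in 2 and Neat1 in 2, which were summed. Which transcript each line stands for, and how reads were divided between lines, is not stated in the sources used here. The first Meg3 line held 48.2% of Meg3 counts with N+F, 6.70% in the amyloid beta control and 63.3% in the untreated library of hippocampal glia. In cortical glia it held 8.55%, 7.51% and 57.7% in the same order. The third line held 3.86% and 3.63% in the untreated libraries and 39.1 to 51.8% in the other four. The proportions of the Meg3 lines therefore differed between the untreated libraries and the rest as well as the level. The second Meg3 line was at 0 in hippocampal glia with N+F and held 44.03 to 54.2% in the other 3 libraries with amyloid beta. Whether that 0 comes from how reads were divided was not tested.

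The first Miat line held 100% of Miat counts with N+F, 100% in the amyloid beta control and 74.4% in the untreated library of hippocampal glia. In cortical glia it held 97.8%, 52.2% and 65.5%. The first Neat1 line held 98.3 to 99.8% in all 6 libraries, so its level is that of a single line.

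**Figure D4:**
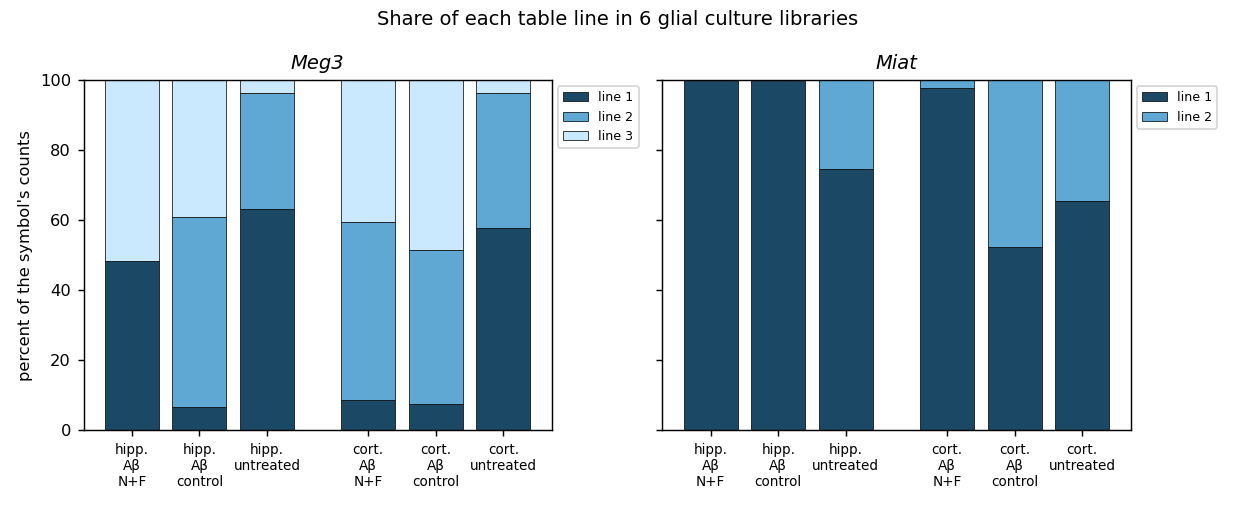
Share of each symbol's counts held by its lines in the culture table, in percent, for Meg3 and Miat in the 6 libraries. The first Meg3 line holds 63.3% and 57.7% in the untreated libraries and 6.70% and 7.51% in the amyloid beta controls.

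With N+F added to amyloid beta, 1 of the 6 members that reached 1 CPM, Snhg11, was at least 2-fold higher in both regions, against 2.07% of 13479 genes higher and 0.119% lower. Per region, 2 of the 6 were higher in hippocampal glia, Snhg11 and Neat1, against 5.6% of genes, and 0 were lower, against 0.767%. In cortical glia 3 were higher, Meg3, Rian and Snhg11, against 12.9%, and 1 was lower, Neat1, against 15.1%. Mirg did not reach 1 CPM in these libraries. The additive fit called 0 members, and 0 genes in all, at an edgeR adjusted p of 0.05, with 3 of 7 members higher at an unadjusted p under 0.05, against 4.91% of 16762 genes. These ratios share the amyloid beta control libraries with the ratios above.

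Snhg11 measured 12.2 CPM with N+F and 4.56 CPM in the amyloid beta control of hippocampal glia, 2.68-fold higher (2.35 to 3.05). In cortical glia it measured 16.3 CPM with N+F and 4.05 CPM in the amyloid beta control, 4.03-fold higher (3.51 to 4.63). The N+F levels were still far below the untreated 2651 and 4042 CPM. Meg3 measured 16.1 and 9.58 CPM in hippocampal glia, and 91.3 and 9.65 CPM in cortical glia, with N+F before the amyloid beta control in each pair. That is 1.68-fold higher (1.52 to 1.85) in hippocampal and 9.46-fold higher (8.69 to 10.3) in cortical glia, log2 ratios of CPM + 1 of 0.69 and 3.11. With the line of highest total alone they were 2.42 and 2.35, past 2-fold in both regions and of like size, so both the hippocampal call and the gap between regions depend on how the lines are combined. Both N+F levels of Meg3 were also far below its untreated levels.

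Rian, next to Meg3, measured 13.2 CPM with N+F and 7.59 CPM in the amyloid beta control of hippocampal glia, and 35.7 and 5.11 CPM in cortical glia, 1.74-fold (1.56 to 1.94) and 6.98-fold higher (6.21 to 7.88). Mirg had 14 counts with N+F and 2 in the amyloid beta control of hippocampal glia, a ratio of 8.65 with an interval of 1.99 to 78.4, and 29 and 13 counts in cortical glia, a ratio of 1.73 with an interval of 0.872 to 3.63 that includes no difference. Miat had 9.06 and 10.96 CPM in hippocampal glia and 15.2 and 17.3 CPM in cortical glia, in the same order, log2 ratios of -0.25 and -0.17. Both Miat ratios were small, and the cortical value was -0.0095 with TMM scaling and 0.67 with the line of highest total alone.

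Markers of other cells also differed with N+F in cortical glia. The 10 mural and fibroblast markers summed to 15891 CPM with N+F and 1161 CPM in the amyloid beta control of cortical glia, and to 3669 and 2462 CPM in hippocampal glia. The 7 choroid plexus markers summed to 406 and 2.01 CPM in cortical glia and to 10.5 and 4.15 CPM in hippocampal glia, in the same order. Among them Ttr was at 0 in cortical glia with N+F and Kcne2 at 0 in all 4 of these libraries, and of the mural and fibroblast markers Kcnj8 was at 0 in 3 of them, all but the hippocampal amyloid beta control, and Lum in the cortical amyloid beta control. In cortical glia the neuron markers summed to 556 CPM with N+F and 453 CPM in the amyloid beta control, the 11 excitatory markers to 277 and 126 CPM, the 10 oligodendrocyte markers to 483 and 181 CPM and the 11 microglial markers to 285 and 143 CPM. In hippocampal glia the same lists, in the same order, summed to 497 and 488, 164 and 151, 262 and 306, and 71.3 and 91.2 CPM. Median log2 ratios in cortical glia were 1.018 for the excitatory, 1.18 for the inhibitory and 2.09 for the oligodendrocyte markers that reached 1 CPM. In hippocampal glia they were 0.03, 0.13 and -0.74. These medians rest on 6 of 11, 6 of 10 and 8 of 10 genes. Of the 12 pan-neuronal markers 9 reached 1 CPM, with medians of 0.15 in cortical and 0.19 in hippocampal glia. At least 2-fold higher in both regions were 1 of these 9 (Nefm), 1 of the 6 excitatory markers (Prox1) and 2 of the 6 inhibitory markers (Lhx6 and Npy). None of the 3 lists had a gene lower in both regions. Over all genes 2.07% were higher and 0.119% lower. The part of these cells in the ratios of Meg3, Rian and Snhg11 was not tested.

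Malat1 and Neat1 went opposite ways in the regions. Malat1 measured 737 CPM with N+F and 936 CPM in the amyloid beta control of hippocampal glia, and 859 and 611 CPM in cortical glia, log2 ratios of -0.34 and 0.49. Neat1 measured 397 CPM with N+F and 191 CPM in the amyloid beta control of hippocampal glia, and 118 and 399 CPM in cortical glia. Neat1 was 2.08-fold higher (2.04 to 2.12) in hippocampal glia and at 0.295 times (0.288 to 0.302) in cortical glia. Opposite changes of at least 2-fold were seen in 0.749% of 13479 genes. With TMM scaling the Neat1 log2 ratios were 0.92 and -1.58, so that the hippocampal value no longer reached 2-fold. Neat1 had 53.9 counts per 100 Malat1 counts with N+F, 20.4 in the amyloid beta control and 18.6 in the untreated library of hippocampal glia. In cortical glia it had 13.7, 65.4 and 12.4. The cortical amyloid beta control and the hippocampal N+F library thus held most Neat1 per Malat1. Of the other four, the hippocampal libraries lay above the cortical ones.

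**Figure D5:**
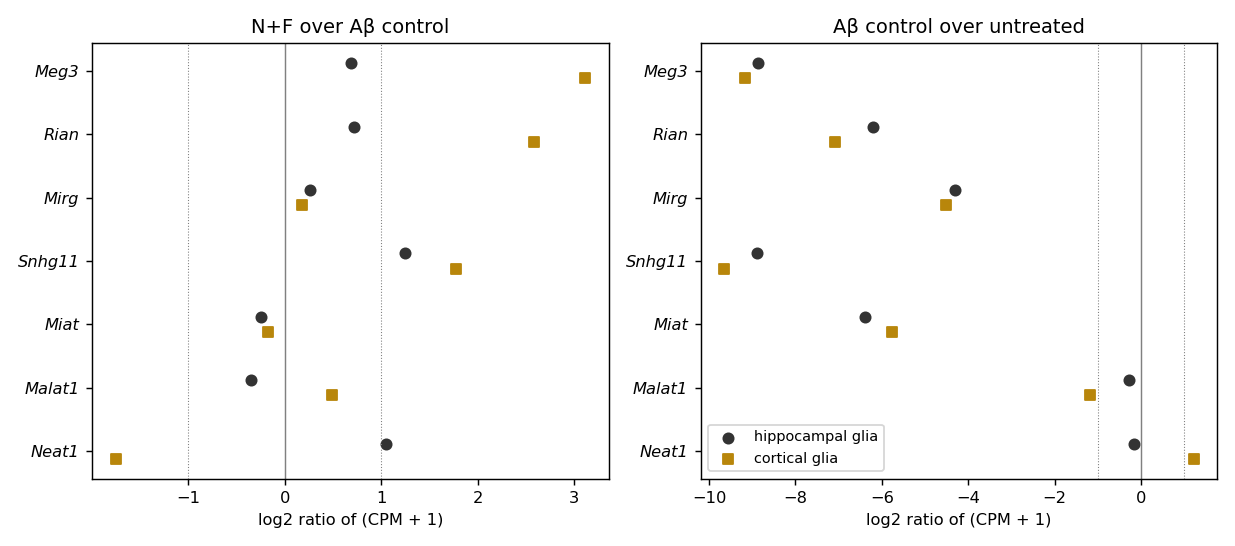
Log2 ratios of CPM + 1 for each member in hippocampal and cortical glia, for N+F over the amyloid beta control and for the amyloid beta control over untreated. Meg3, Rian, Snhg11, Mirg and Miat lie far below 0 in the second comparison, and Neat1 has opposite signs in the regions in the first.

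The proportions between Meg3, Rian, Miat and Snhg11 differed between culture libraries. Rian had 81.9 counts per 100 Meg3 counts with N+F, 79.2 in the amyloid beta control and 12.8 in the untreated library of hippocampal glia, and 39.1, 52.9 and 13.5 in cortical glia. Miat had 56.3, 114 and 20.3 counts per 100 Meg3 counts in hippocampal glia, in the same order of libraries. The cortical values were 16.7, 179 and 16.3. Snhg11 had 76.0, 47.6 and 53.3 counts per 100 Meg3 counts in hippocampal glia, and the cortical values were 17.9, 42.0 and 66.1. The Rian share of 12.8 and 13.5 in the untreated libraries lay nearest to the tissue values of 6.17 to 10.3, with the caution that the tables were counted separately. In the amyloid beta controls the ratio to untreated was thus smaller for Meg3 than for Rian.

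The patterns most like each member over all 13 libraries were taken as the smallest root mean square difference of log2(CPM + 1), centred within each table, among 13501 genes. For Meg3 the nearest were Snhg11 (difference 0.47), the oligodendrocyte protein gene Tppp (0.56) and the neuronal splicing factor gene Rbfox1 (0.60). Rian itself had rank 35 for Meg3. For Rian the nearest were Nefm, a neurofilament (0.29), Rab15 (0.30) and Clstn3 (0.30). For Snhg11 they were Rph3a (0.42), Slc24a2 (0.45) and Meg3 (0.47), and for Miat Mast1 (0.33), Col19a1 (0.33) and Slc6a7 (0.33). For Malat1 they were Vps37d (0.12), Kcnn1 (0.15) and Zyg11b (0.16). For Neat1 they were Slc25a45 (0.29), 1700010I14Rik (0.33) and Cdc14a (0.33). Slc25a45 lies 2 genes from Neat1 along chromosome 19, after Frmd8. Mirg had no tissue row and was not ranked. All members share the same libraries, so these differences are a description.

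Of the genes in the same domain and its flanks, 11 were tested in tissue and 0 passed the test, with a median log2 fold change of 0.11 against -0.0044 over all genes. Dlk1, the paternally expressed ligand-like protein upstream of Meg3, measured 190, 113, 152 and 163 CPM with N+F, against 103, 111 and 92.8 CPM with control AAV9. Every N+F library lay above every control, by little for N+F 2 (113 CPM) over control 2 (111 CPM). Separate groups were seen in 8.11% of all genes. Its log2 fold change was 0.59 ± 0.17 (edgeR adjusted p = 0.283). Rtl1 had a log2 fold change of 0.43 ± 0.21 (edgeR adjusted p = 0.622) and Dio3, the thyroid hormone deiodinase, -0.65 ± 0.46 (edgeR adjusted p = 0.781). In culture, 9 were tested. In both amyloid beta controls 3 of them were lower and 0 higher, beside 21.5% and 16.6% of all genes. Those lower were Begain (log2 ratios of -5.01 in hippocampal and -5.28 in cortical glia), Evl (-1.97 and -1.87) and Degs2 (-1.43 and -1.72). Degs2 was at 0 in both amyloid beta controls and at only 1.70 and 2.30 CPM in the untreated libraries, so its ratios depend on the added 1 CPM. Dlk1 measured 11.3 CPM with N+F, 9.22 in the amyloid beta control and 7.49 in the untreated library of hippocampal glia, and 15.8, 11.8 and 1.46 CPM in cortical glia. Dlk1 was thus not lower in the amyloid beta control of either region. Wdr25, Wars, Slc25a29, Yy1 and Ppp2r5c had log2 ratios from -0.67 to 0.79 against the untreated libraries. Dio3 had -2.47 and -0.47, but it stayed under 1 CPM in cortical glia (0.0659 and 0.479 CPM) and was not among those tested.

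Among 28 imprinted genes of other domains tested in culture, 12 were lower and 4 were higher in the amyloid beta controls in both regions, beside 21.5% and 16.6% of all genes, with medians of -0.43 and -0.56. Those lower included Peg3, a zinc finger gene (-4.52 and -4.72), and the noncoding RNA Peg13 (-4.07 and -4.16), and those higher were Sgce, Mest, H19 and Peg12. With N+F 2 of 26 were higher in both regions, Nnat and Zim1, beside 2.07% of all genes. Nnat, a small membrane protein, measured 452 CPM with N+F, 1.54 CPM in the amyloid beta control and 342 CPM in the untreated library of hippocampal glia, and 24.1, 3.94 and 79.9 CPM in cortical glia. Of these genes 0 of 27 passed the tissue test, with a median of 0.21.

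Of 18 other small nucleolar RNA hosts, 2 were lower with amyloid beta, Snhg14 (-3.78 and -3.98) and Snhg6 (-1.05 and -1.06), and 2 were higher, Snhg18 (2.60 and 3.31) and Snhg15 (1.37 and 1.43). Over all genes 21.5% were lower and 16.6% higher, so neither count was above the background. The list medians were -0.96 and -0.47, against -0.03 and -0.01 over all genes. Snhg14 was also counted among the lower imprinted genes above. Gas5, a growth arrest RNA, had -1.13 and -0.01. Of 18 other brain long noncoding RNAs, 8 were lower and 1 was higher, beside the same 21.5% and 16.6%, with medians of -1.07 and -1.38. Peg13 and Kcnq1ot1 among the lower ones, and H19, the higher one, were counted with the imprinted genes too. Mir124a-1hg, the host of the neuronal microRNA miR-124, was at -7.91 and -7.28, and 2900097C17Rik was at -2.08 and -2.07. In the N+F comparison 0 members of either list were past 2-fold in both regions. In tissue 0 of 16 passed the test in each list, with medians of 0.21 and 0.04.

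The protein partners of Neat1 and Malat1 were counted as lists too. Of 14 paraspeckle proteins 1 was lower with amyloid beta in both regions, Cpsf6, beside 21.5% of all genes. With N+F 0 were past 2-fold in both regions, beside 2.07% of genes higher and 0.119% lower. The median log2 ratios with N+F were 0.19 in hippocampal and -0.84 in cortical glia. Ewsr1, an RNA-binding protein of the list, measured 223 CPM with N+F and 210 CPM in the amyloid beta control of hippocampal glia, and 75.7 and 263 CPM in cortical glia. Of 16 nuclear speckle proteins 2 were lower with amyloid beta in both regions, Srrm2 and Rnps1, beside the same 21.5%. The lower counts of both protein lists were thus not above the background. The N+F medians of the speckle list were 0.32 and -1.11. Srsf5, a splicing factor, measured 178 CPM with N+F and 189 CPM in the amyloid beta control of hippocampal glia, and 71.8 and 322 CPM in cortical glia. Medians over all genes were 0.11 and -0.18 in this comparison, and with TMM scaling -0.01 and -0.02. In tissue 0 of 14 and 0 of 16 passed the test, with medians of -0.07 and -0.02. Of the 12 protein-coding neighbours of Neat1 and Malat1, Frmd8, Ltbp3 and Fam89b were higher and Tigd3 was lower in both amyloid beta controls. Over all genes 16.6% were higher and 21.5% lower there. Of these neighbours 0 passed the tissue test.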

How the data were processed

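Per the labels' protocols, Trizol was used to harvest RNA and libraries were made with a SMARTER kit for mRNA. The authors deposited whole-number counts per gene symbol in a tissue and a culture table. TopHat, HISAT2 and edgeR are named without role or version in the submitters' processing notes, which also name the human build hg19, so the build behind the counts was not established, and the coordinates printed are those of RefSeq in GRCm38.p6. The sources used here do not state whether counting used strand. Groups came from the sample titles. They do not say that replicates are separate animals, and p-values therefore reflect only how these libraries spread, possibly for technical reasons.

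Lines of a symbol were summed (44 repeated lines in tissue, 12238 in culture). Replicate pairs differed beyond sampling noise (chi-square per gene 15.0 to 56.1). Tissue was tested with edgeR 4.0.16 in R 4.3.3 (filterByExpr, TMM factors 0.895 to 1.11, quasi-likelihood, Benjamini-Hochberg over 15523 genes), without a replicate block, and with DESeq2 1.42.0 as an alternative. The edgeR step was tested on simulated data. Culture ratios are log2 of CPM + 1, with a gene counted at 2-fold the same way in both regions and 1 CPM in a library of each pair. Intervals are exact at 95% and cover counting error only. For a count of 0, as for Foxa2 in the culture libraries without N+F, the upper limit was 0.0494 to 0.0707 CPM. The members and lists were chosen with earlier results of these data known. Named genes were the members, the genes of the Dlk1-Dio3 list, the 3 genes of highest mean CPM and those past the tissue test in each other list, the delivered genes and the 3 nearest patterns per member. Genes named beyond these because they were past the fold in a list were chosen after their values were seen. The alternatives were other scalings, filters, pseudocounts and treatment of repeated lines, DESeq2, leaving out each library, a replicate block and Rn45s left out. RNAs of the mitochondrial genome were not analysed here.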

Additional observations from a re-analysis of the deposited data

Results flagged for a closer look

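The following 3 pairs of culture values were picked out because the library of one region lay above its comparison and the library of the other region below it. Neat1 had log2 ratios of -0.1515 in hippocampal and 1.227 in cortical glia for the amyloid beta control over untreated. For N+F over the amyloid beta control, Neat1 had 1.052 in hippocampal and -1.751 in cortical glia, and Malat1 had -0.3446 and 0.4919. The difference between regions was not tested in any of them, because each condition was 1 library per region. The smaller values, those of Malat1 and of Neat1 in hippocampal glia with amyloid beta, were below 2-fold.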

How the results depend on the processing

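No alternative called any of the 6 tissue members. With each library left out in turn the log2 fold changes ran from -0.18 to 0.41 for Meg3, -0.33 to 0.09 for Rian, 0.07 to 0.49 for Snhg11, -0.76 to -0.09 for Miat, -0.06 to 0.12 for Malat1 and -0.97 to -0.17 for Neat1. Rian was above 0 at 0.09207 without control 1, and Malat1 was lowest, at -0.05584, without N+F 3, with the cause not tested. Meg3, at 0.01 with all libraries, was at -0.001877 with no count filter, and the cause was not tested. Otherwise RLE and upper-quartile scaling, no count filter, DESeq2, Rn45s left out and the replicate block kept the direction of all 6. Each of the 6 has 1 line in tissue, so taking the line with the highest total could not change their counts.

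With the replicate block, which uses pairs 1 to 3 and leaves out N+F 4, the log2 fold changes were 0.14 for Meg3, -0.19 for Rian, 0.41 for Snhg11, -0.50 for Miat, 0.11 for Malat1 and -0.44 for Neat1. edgeR then called 0 genes, with 1541 at an unadjusted p under 0.05. It also called 0 genes, with 1544 at an unadjusted p under 0.05, when N+F 4 was left out without the block, so both fits without N+F 4 had the same number of calls. The numbers were not taken as pairs, because same-numbered deviations correlated at -0.011, -0.127 and 0.168 and not every library correlated best with its own number.

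With the line of highest total, Meg3 was at -10.9 in hippocampal and -11 in cortical glia for the amyloid beta control over untreated. In culture the 5 members lower with amyloid beta numbered 5 under every alternative run. The number higher with N+F in both regions, 1 as reported, was 2 with the line of highest total, which added Meg3 (log2 ratios 2.42 and 2.35), and 0 with the additive edgeR fit, which has 2 residual degrees of freedom. With the highest-total line Miat in cortical glia turned to 0.67 with N+F, since its second line was then left out. Of 28 culture ratios per setting, 10 moved beyond counting error with TMM scaling, 11 with a pseudocount of 0.1 CPM and 7 with the highest-total line. None moved without the filter, which cannot change a ratio because it only decides which genes are counted. Depth limits Mirg most, with 2 to 29 counts in the libraries with amyloid beta.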

Other observations

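Rian also contains small nucleolar RNAs, of which 7 had rows in both tables. AF357359, the one with the most counts in culture, had 10 counts with N+F, 7 in the amyloid beta control and 321 in the untreated library of hippocampal glia, and 38, 4 and 310 counts in cortical glia. In tissue it had 85, 86, 81 and 79 counts with N+F and 303, 110 and 110 with control AAV9, where control 1 is the deepest library. DQ267101 had 25 to 51 counts with N+F and 41 to 136 with control AAV9 in tissue, but 0 to 2 in the 6 culture libraries. These rows rest on few reads and were not tested.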
